A study of Mus musculus with 10 samples.

Results

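The genes described here are the 100 genes of a mouse reprogramming time course that rose most with the transcription factor FoxO6 among those whose mean of days 5 and 7 lay near their day 0 in the control arm. They were chosen by a rule on deposited TPM values (transcript abundance scaled to the library total), taken as log2(TPM + 1). The rise of a gene in an arm is the mean of its days 5 and 7 minus its day 0. The methods place infection before the change to iCD1 medium but do not say when the day 0 sample was taken relative to either, and Foxo6 was already high in the FoxO6 library of that day. Of 50600 genes in the files, 11491 had a mean TPM of at least 5 over the 10 libraries, 5436 of these had a control rise from -0.5 to 0.5, and the 100 with the largest FoxO6 rise were taken. The members were thus selected on the libraries of days 0, 5 and 7, whose values are given as a description without a test, and rose or fell, said of single libraries over time, describes their values and was not tested. The libraries of days 1 and 3 entered the rule only through the mean TPM, and the comparison of the arms on those days is the one that was tested.

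Mouse embryonic fibroblasts (MEFs) from a CBA/CaJ X C57BL/6J cross, taken at E13.5, received Oct4, Klf4 and Sox2 (OKS) from retroviruses made in PlatE packaging cells and were kept in iCD1 medium. One arm (OKS+FoxO6) also received FoxO6, and the control arm (OKS+DsRed, named DR in the labels) received the red fluorescent protein DsRed. RNA was taken at days 0, 1, 3, 5 and 7, with 1 library for each arm and day, and the groups thus share the OKS viruses and have no replicates. The methods of the study describe MEFs with an Oct4-GFP reporter, and the Foxo6 level is that of the viral gene together with the cell's own. The libraries held 1208379 to 2225750 expected counts. Foxo6 itself had a TPM of 0.61 to 2.29 with DsRed and of 762.11 to 1356.41 with FoxO6, and was thus high in every library labelled FoxO6, day 0 included. The fibroblast markers, Col1a1, Col1a2, Col3a1, Thy1, Pdgfra and Twist2, summed to 573.1 to 3797.6 TPM with DsRed and to 968.9 to 3351.7 TPM with FoxO6, with the highest sum at day 0 in both arms. On the late days, on which the members were chosen, this sum was higher with FoxO6, at 1346.3 TPM against 672.1 at day 5 and 968.9 against 573.1 at day 7. The sum of the epithelial markers Cdh1, Epcam, Krt8 and Krt18 was lower with FoxO6, at 54.6 TPM against 274.4 at day 5 and 131.9 against 608.3 at day 7. The part of these shifts in the members' values was not tested.

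FoxO6 is a forkhead transcription factor of the FoxO family, whose members act downstream of insulin and growth factor signalling and bind DNA with the core GTAAACA. FoxO factors are known for target genes of cell cycle arrest, oxidative stress resistance, autophagy and metabolism. In reprogramming, OKS turns off the fibroblast programme in the first days and turns on epithelial and then pluripotency genes. In bulk samples such as these, fewer cells that express a gene and less RNA per cell cannot be told apart.

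The promoters of 4 members show what the sequence at the start of these genes looks like. The 4 are Dhrs3, Ankrd23, Prrt4 and Apbb1ip. Prrt4 and Apbb1ip have the smallest p at days 1 and 3 among the members with a promoter found. The windows printed for Dhrs3 and Ankrd23 hold the forkhead core, and those for Prrt4 and Apbb1ip do not. Each runs 5′ to 3′ from 250 bases before to 50 bases after a RefSeq gene start (GRCm38.p6), and capitals mark GTAAACA or its reverse complement TGTTTAC.
Dhrs3, chr4:144892887-144893186, plus strand: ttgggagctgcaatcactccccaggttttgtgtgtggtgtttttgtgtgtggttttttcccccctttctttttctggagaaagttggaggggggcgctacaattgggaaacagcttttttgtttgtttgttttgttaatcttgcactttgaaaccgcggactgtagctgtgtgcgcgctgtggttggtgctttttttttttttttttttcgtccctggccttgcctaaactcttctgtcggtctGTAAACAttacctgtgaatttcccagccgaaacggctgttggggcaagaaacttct
Ankrd23, chr1:36536507-36536806, minus strand: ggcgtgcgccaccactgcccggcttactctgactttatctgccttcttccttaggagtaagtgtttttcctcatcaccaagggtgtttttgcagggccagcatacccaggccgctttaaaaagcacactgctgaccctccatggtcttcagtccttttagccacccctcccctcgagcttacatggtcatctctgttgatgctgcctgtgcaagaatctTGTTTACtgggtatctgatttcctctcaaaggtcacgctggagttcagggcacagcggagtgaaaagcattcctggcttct
Prrt4, chr6:29179535-29179834, minus strand: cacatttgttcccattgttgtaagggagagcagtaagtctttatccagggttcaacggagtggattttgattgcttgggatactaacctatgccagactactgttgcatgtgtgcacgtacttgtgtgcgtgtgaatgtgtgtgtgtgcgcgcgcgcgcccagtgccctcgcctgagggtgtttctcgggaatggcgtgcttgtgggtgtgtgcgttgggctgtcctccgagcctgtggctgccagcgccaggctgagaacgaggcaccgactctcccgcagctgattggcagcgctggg
Apbb1ip, chr2:22774077-22774376, plus strand: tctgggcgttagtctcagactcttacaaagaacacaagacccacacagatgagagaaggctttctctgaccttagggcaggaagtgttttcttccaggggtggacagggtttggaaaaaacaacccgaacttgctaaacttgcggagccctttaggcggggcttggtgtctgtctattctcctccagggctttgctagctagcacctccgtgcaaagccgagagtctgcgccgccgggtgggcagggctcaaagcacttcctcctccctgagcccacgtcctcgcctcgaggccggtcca
In Dhrs3 the capitals begin at base 245 of the window, 6 bases before the start, and in Ankrd23 at base 220, 31 bases before the start. Windows at other starts of Dhrs3 and Ankrd23, not printed, do not hold the core. A promoter was found by symbol for 68 of the 100 members, which gave 93 windows of 300 bases. The forkhead core, searched on both strands, was in 4 of these windows (4.3%), those of Ankrd23, Dhrs3, Olfr986 and Rassf6, and in 3.65% of all 32851 windows. The E-box CACGTG was in 8 of the members' windows (8.6%) and in 7.15% of all windows, and the members that hold it are Mxd4, Psd4, Rasal3, Sap25, Tef and Zfp747. The TATA box letters TATAAA, or TTTATA on the other strand, were in 8.6% of the members' windows, among them those of Vegfd, Defa23, Defa30 and Defa31, and in 13.62% of all windows. The AP-1 core TGACTCA, or TGAGTCA, was in 2 of the members' windows (2.15%), those of Agpat4 and Scel, and in 5.2% of all windows. The shares of the members and of all promoters were thus close for the forkhead core and the E-box, and no match says that a factor binds.

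The rises with FoxO6 ran from 5.25 to 1.29 on the log2 scale, with a median of 1.68 against -0.06 for all 5436 genes with a flat control. The values beside the limit of the list were close together. Eci2, Clec2d and Gm5812, the last 3 members, each rose by 1.29, and Tcf7l1, Cacnb3 and Pigp, the first 3 genes outside, rose by 1.28, 1.27 and 1.26. Clec2d, a lectin-like ligand of natural killer cell receptors, ended above DsRed. With FoxO6 the TPM of Clec2d was 10.3, 16.9, 20.5, 31.7 and 22.3 from day 0 to day 7, and with DsRed it was 4.03, 5.73, 19.03, 11.4 and 0.89. Gm5812, a pseudogene that shares most of its sequence with Fbl, did not differ by 2-fold between the arms on any day. On the 5 days Gm5812 stood at 24.8, 41.6, 27.9, 64.4 and 59.7 TPM with FoxO6 and at 37.9, 58.9, 40.8, 34.04 and 39.1 TPM with DsRed. The genes outside had courses of the same kind. In TPM, Tcf7l1 measured 55.3, 81.8, 91.8, 60.8 and 92.2 with DsRed and 41.6, 57.4, 83.8, 101 and 104 with FoxO6 from day 0 to day 7. The DsRed libraries gave Cacnb3 a TPM of 69, 70.03, 104, 107 and 90.02, and the FoxO6 libraries 49.1, 64.8, 62.96, 107 and 135. Pigp ran through 17.6, 47.03, 35.1, 45.6 and 41.9 TPM with FoxO6 from day 0 to day 7, and through 31.5, 65.2, 39.3, 40.1 and 48.8 TPM with DsRed. Tcf7l1, a repressor of the Wnt pathway, Cacnb3, a calcium channel subunit, and Pigp, of GPI anchor synthesis, all had their lowest value of the 10 libraries at FoxO6 day 0. Among the flat genes 178 rose by more than 1 with FoxO6 and 235 fell by more than 1. When the rule was run with the arms exchanged, the 100 genes that rose most with DsRed alone had rises of 6.57 to 1.9 with a median of 2.39, larger than those of the FoxO6 genes.

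The members differed in where they ended and in where they started. Over days 5 and 7, 45 members ended more than 2-fold above DsRed, 54 ended within 2-fold of it and 1 ended more than 2-fold below it. The 45 started on both sides of the control, from -2.59 for Ankrd23 to 3.75 for Hist2h2aa1, with a median difference between the arms of 0 at day 0. Of these, 33 were within 2-fold of DsRed at day 0, 10 were more than 2-fold higher, Kng1, Vegfd and Apbb1ip among them, and 2 were more than 2-fold lower. The 54 started low with FoxO6, with a median difference of -1.18 at day 0, and 35 of them were more than 2-fold below DsRed in that library. None of the 54 was higher with FoxO6 at day 0. For 64 of the 100 members, ties included, the FoxO6 day 0 library was the lowest of the 10, and in 23 members it held at most 3 reads. The median difference of all 100 went from -0.8 at day 0 through -0.03 at day 1, 0.22 at day 3 and 0.73 at day 5 to 1.01 at day 7, while that of the 11491 genes lay between -0.13 and 0.11. Since the rule subtracts day 0, both kinds of gene pass it.

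**Figure D1:**
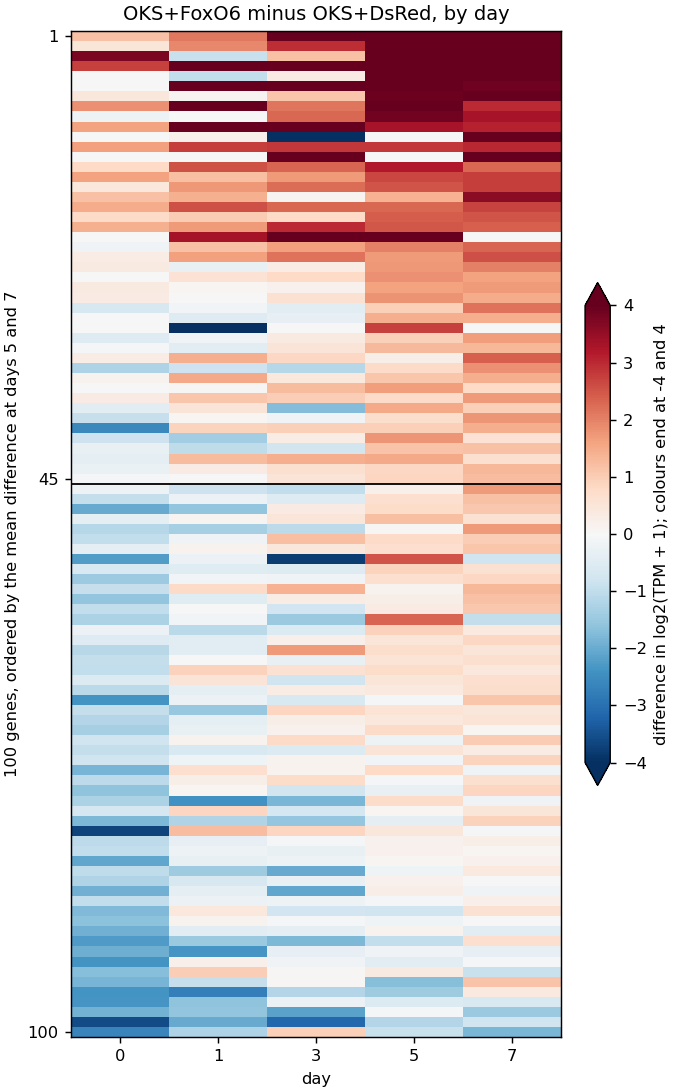
Difference between OKS+FoxO6 and OKS+DsRed in log2(TPM + 1) for the 100 genes (rows) on the 5 days (columns), ordered by the mean difference of days 5 and 7; red is higher with FoxO6 and blue is lower. The black line marks the 45 genes that ended more than 2-fold above DsRed, and the rows below it are mostly blue at day 0.

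The rule did not compare the arms at days 1 and 3. The rounded expected counts of these 4 libraries were fitted with the quasi-likelihood test of edgeR, with a term for day, over 11085 genes and with Benjamini-Hochberg adjustment over all of them. The fit describes these 2 time courses, since the libraries of an arm may come from 1 infected culture, and it had 1 residual degree of freedom. With FoxO6, 730 genes were called higher (6.59% of those tested) and 825 lower (7.44%). Of the 100 members 78 were in the fit, of which 16 were called higher, 6 were called lower and 56 were not called. The 16 are 20.5% of the 78, against 6.59% over all genes, and the 6 are 7.7% of them, near the 7.44%. These counts depend on the fit. DESeq2 called 9 of the 16 higher and 0 of the 6 lower, with 10 members higher and 4 lower at an unadjusted p under 0.05, and it lost Kdr, Kng1, Slc9a7, Slc40a1, March10, Ppm1k and Zfp747. Without the day term edgeR called 3 higher and 0 lower, with 17 and 4 at an unadjusted p under 0.05, and with the spread of all 10 libraries it lost Kdr, March10, Ppm1k and Zfp747 of those called higher and Nbeal2 of those called lower. The rule's minimum TPM also used the libraries of days 1 and 3, and a gene at 0 with DsRed can pass it through FoxO6 alone. With that minimum taken over days 0, 5 and 7, 93 members remained, and 15 of the 74 in the fit were called higher (20.3%, against 6.64% of all such genes), since Rasal3 failed it. With the minimum set on the DsRed libraries of those days, 79 members remained and 9 of the 65 in the fit were called higher (13.8%, against 6.35%), since Prrt4, Kdr, March10, Psd4, Kng1, Slc9a7 and Rasal3 failed it. The median log2 fold of the members in the fit was 0.13, against 0 over all genes. Of the genes chosen with the arms exchanged, 69 were in the fit, 2 were called higher and 13 lower with FoxO6.

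All 16 genes called higher belonged to the 45 that ended above DsRed, of which 36 were in the fit and 2 were called lower. Of the 54 that ended within 2-fold of DsRed, 41 were in the fit, of which edgeR called 0 higher and 4 lower. At an unadjusted p under 0.05, 2 of these 41 were higher and 8 lower, and DESeq2 called 0 of them higher and 0 lower. The median difference of the 45 was 0.57 at day 1, when 31 of them were higher with FoxO6, and 0.94 at day 3, when 37 were. That of the 54 was -0.3 at day 1 and -0.27 at day 3. The division into 45 and 54 was itself made on the late libraries after their values were seen, so these counts are a description.

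**Figure D2:**
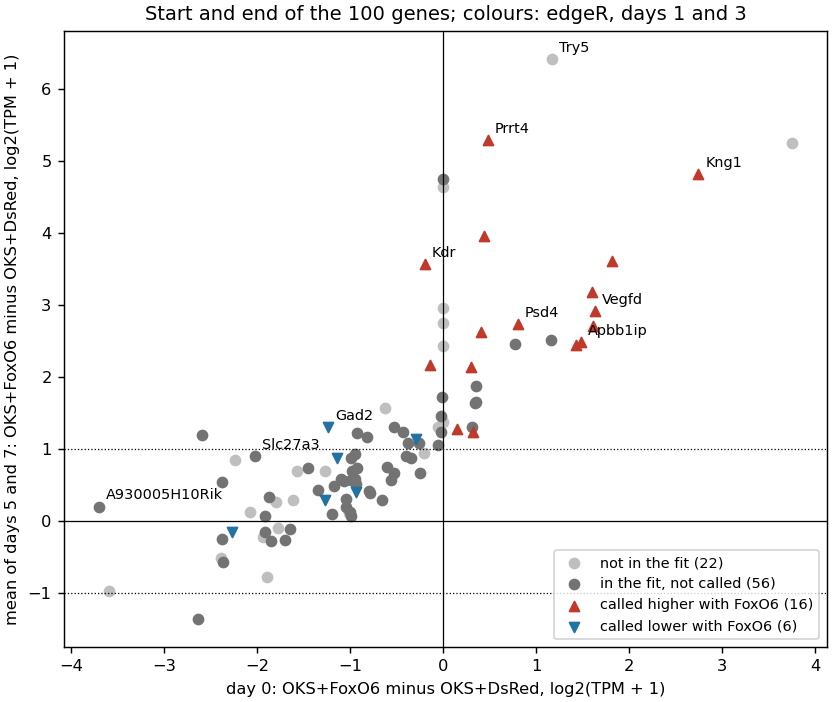
Each point is one of the 100 genes, with the difference between the arms in log2(TPM + 1) at day 0 on the x axis and the mean difference at days 5 and 7 on the y axis; dotted lines mark 2-fold. Red triangles, the 16 genes called higher at days 1 and 3 by edgeR, all lie above the upper dotted line, and A930005H10Rik, the point farthest to the left, ends near 0.

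The same days counted by fold, without a fit, gave 22 members more than 2-fold higher with FoxO6 at day 1 (5.39% of all 11491 genes were) and 17 more than 2-fold lower (6.47% of all). At day 3, 24 were more than 2-fold higher (5.62% of all) and 14 lower (8.42% of all). Both directions were thus more frequent among the members than among all genes at both days. The members are low genes, with a median of 25.1 expected counts per library against 69.2 over all genes, and the part of this in the excess in both directions was not tested. Among the 57 members with a mean of at least 20 expected counts, 13 were more than 2-fold higher at day 1 and 5 were lower, and 16 were higher at day 3 and 5 were lower. Over all 9743 genes of that depth, 3.88% were more than 2-fold higher and 4.44% lower at day 1, and 4.39% higher and 6.06% lower at day 3. From day 1 to day 3, 20 members rose more than 2-fold further with FoxO6 than with DsRed (6.2% of all genes did), and 12 members did the opposite (8.46% of all genes did).

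**Figure D3:**
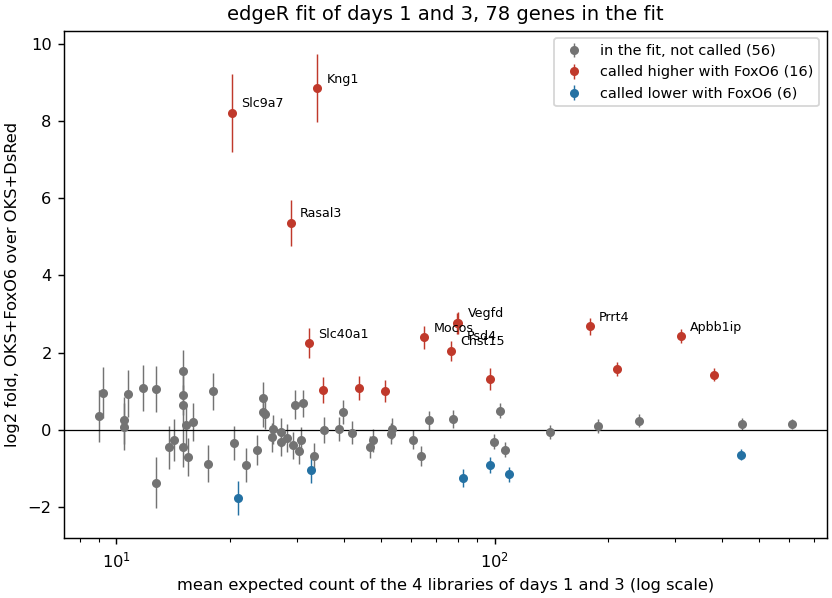
The edgeR log2 fold of OKS+FoxO6 over OKS+DsRed at days 1 and 3 against the mean expected count of the 4 libraries (log scale) for the 78 members in the fit; bars are the standard errors of the fit. The 16 red genes lie from 1.01 to 8.86, and Kng1, Slc9a7 and Rasal3, at the top, have 0 or 1 reads with DsRed, so their fitted folds are not bounds.

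The genes called higher are taken by what each is known to do. The list of small GTPases and their regulators, of which 37 genes were expressed (a mean of at least 5 TPM), held 0 members. Over all genes, 100 of 11491 expressed ones were members. Of its 35 genes in the fit 7 were called higher and 3 lower, against 6.59% and 7.44% of all genes. The list does not include Apbb1ip, Psd4 and Rasal3, which are members and are taken here by their known roles. Its counts therefore do not cover these genes. Apbb1ip, also known as RIAM, links the small GTPase Rap1 to talin and so to integrins. For Apbb1ip, the TPM from day 0 to day 7 was 27.4, 32.4, 48, 40.1 and 28.8 with DsRed and 78.3, 199, 239, 199.9 and 191 with FoxO6. Its FoxO6 values lay above all 5 DsRed values on every day, and it had the smallest p of the members, with a log2 fold of 2.43 (SE 0.17, edgeR adjusted p = 2.62e-17). Psd4, an exchange factor of the small GTPase Arf6, was low with DsRed throughout. Across the time course Psd4 read 7.14, 22.9, 38.9, 43.99 and 32.4 TPM with FoxO6, against 3.66, 3.11, 6.97, 3.91 and 5.82 TPM with DsRed. The FoxO6 library was the higher of the pair on each day, and at days 1 and 3 the log2 fold was 2.76 (SE 0.27, edgeR adjusted p = 5.45e-12). Rasal3, a GTPase-activating protein of Ras known from blood cells, was covered by at most 1 read in each DsRed library. Rasal3 TPM from day 0 to day 7 was 2.54, 25.3, 23.8, 18.1 and 6.90 with FoxO6 and 0, 0.41, 4.67, 0 and 0 with DsRed. With FoxO6 it had 5 reads at day 0, 46 at day 1 and 68 at day 3. It was called higher with an adjusted p of 2.55e-10 in edgeR, and with the DsRed side set to 3 reads the difference at day 5 was at least 14.08-fold and that at day 7 at least 6.46-fold. Prrt4, a proline-rich membrane protein, had the largest rise of the 57 members with a mean of at least 20 expected counts. Prrt4 had a TPM of 2.98, 31.2, 171, 123 and 78.01 with FoxO6 at days 0, 1, 3, 5 and 7, and of 1.85, 7.49, 21.3, 3.92 and 0.31 with DsRed. It rose in both arms to day 3, when the FoxO6 library held 557 reads and the DsRed library 52, and then fell back with DsRed to 1 read at day 7. At days 1 and 3 its log2 fold was 2.68 (SE 0.22, edgeR adjusted p = 1.32e-14).

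The genes of the blood vessel list among the members were the growth factor Vegfd and the receptor Kdr, with the vasoactive peptide precursor Kng1 from the list of coagulation genes. With the rule applied to counts scaled to library size (CPM), neither Vegfd nor Kdr was a member. Their FoxO6 rises in CPM were 1.36 and 3.9. Vegfd, a growth factor known from lymphatic vessels, was already higher with FoxO6 at day 0. With FoxO6 the TPM of Vegfd was 33.4, 54.7, 113, 89.7 and 82.6 from day 0 to day 7, and with DsRed it was 10.1, 7.31, 15.2, 11.8 and 9.45. The arms did not overlap, and the log2 fold at days 1 and 3 was 2.77 (SE 0.28, edgeR adjusted p = 6.03e-12). Kdr, the main receptor of VEGF on endothelial cells, behaved differently in time. On the 5 days Kdr stood at 1.70, 10.6, 44.6, 38.4 and 20.8 TPM with FoxO6 and at 2.11, 10.8, 8.18, 1.74 and 1.23 TPM with DsRed. At day 1 the libraries of both arms were close (48 and 51 reads), and at day 3 the arms parted (35 and 254 reads), so that the call, with a log2 fold of 1.31 (SE 0.28, edgeR adjusted p = 0.000396), rests on day 3, and DESeq2 gave an adjusted p of 1. Kng1, kininogen, the precursor of bradykinin, had 0 reads in all 5 DsRed libraries. In TPM, Kng1 measured 0 on all 5 days with DsRed and 5.67, 16.9, 59.5, 30.3 and 24.6 with FoxO6 from day 0 to day 7. Against 3 reads, Kng1 was higher by at least 7.49-fold at day 1, 28.21-fold at day 3, 13.3-fold at day 5 and 16.64-fold at day 7, and edgeR gave an adjusted p of 6.94e-12 at days 1 and 3, and DESeq2 one of 0.674. Of its transcript sequence 26.5% is shared with Kng2 in stretches of 31 bases, so that some reads could be assigned to either gene.

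The lists from which these genes come held calls in both directions. Of 20 expressed genes of angiogenesis and endothelium, 2 were members, and of the 19 in the fit 5 were called higher and 3 lower at days 1 and 3, with a median log2 fold of 0.09. Over all genes, 100 of 11491 expressed ones were members, 6.59% of those in the fit were called higher and 7.44% lower. Of 16 expressed genes of coagulation and fibrinolysis, 1 was a member, and of 15 in the fit 4 were called higher and 3 lower, with a median of 0.36. Of 7 endothelial markers, Kdr among them, the summed TPM lay between 38.1 and 58.6 with DsRed and between 40.1 and 146.3 with FoxO6. Without Kdr the sum was 36.0, 27.2, 46.6, 51.1 and 57.4 with DsRed and 38.4, 56.6, 101.7, 104.2 and 71.1 with FoxO6 on the 5 days. Tek, the angiopoietin receptor, was the largest part of it in every library but that of DsRed day 0, where Egfl7 had 17.3 TPM, with 16.77 to 47.27 TPM with DsRed and 27.61 to 103.66 with FoxO6. Of the other markers, Pecam1, Cdh5, Tie1 and Emcn stayed low with FoxO6, at no more than 0.76, 1.24, 1.58 and 0.26 TPM. Pecam1 had 5.73 TPM at DsRed day 7. Egfl7 had 8.02 TPM at FoxO6 day 0 and 6.63 at FoxO6 day 3, and 0 at FoxO6 days 1, 5 and 7. Macrophage markers, given because Rasal3 and Apbb1ip are also genes of blood cells, summed to 15.1 to 57.1 TPM with DsRed and 22.3 to 29.4 with FoxO6, of which Cd68 made up most with FoxO6 (15.84 to 24.35 TPM) and reached 52.57 TPM with DsRed. Lyz2 was detected in every library, Itgam reached 4.36 TPM at FoxO6 day 7, Csf1r and Ptprc stayed at no more than 0.6 in any library, and Tyrobp was at 0 in all 5 FoxO6 libraries.

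Impdh1 is an IMP dehydrogenase of guanine nucleotide synthesis. The DsRed libraries gave Impdh1 a TPM of 70.4, 76.9, 126, 103 and 76.3, and the FoxO6 libraries 63.7, 174, 393, 419 and 387. It had similar levels at day 0 in both arms and was more than 2-fold higher with FoxO6 on all 4 later days, with a log2 fold of 1.43 (SE 0.16, edgeR adjusted p = 4.68e-10) at days 1 and 3. Impdh1 lies 20.8 kb from Prrt4 on chromosome 6, and both are members. C1qtnf1, a secreted C1q and TNF related protein, rose and fell in both arms. C1qtnf1 ran through 52.3, 99.3, 203, 185 and 112 TPM with FoxO6 from day 0 to day 7, and through 16.4, 43.01, 62.5, 28.4 and 15.5 TPM with DsRed. The FoxO6 library was more than 2-fold above the DsRed library on every day, and the log2 fold at days 1 and 3 was 1.57 (SE 0.19, edgeR adjusted p = 1.4e-09). Chst15, a sulfotransferase that makes chondroitin sulfate E, showed a widening difference. For Chst15, the TPM from day 0 to day 7 was 12.8, 5.61, 7.79, 15.1 and 6.49 with DsRed and 16.03, 19.7, 38.96, 51.3 and 43.4 with FoxO6. The arms were near each other at day 0 and were called different at days 1 and 3, with a log2 fold of 2.05 (SE 0.26, edgeR adjusted p = 1.17e-08). Slc40a1, the iron exporter ferroportin, went up from day to day with FoxO6 and did not with DsRed. Across the time course Slc40a1 read 9.05, 12.9, 23.5, 34.5 and 41.5 TPM with FoxO6, against 6.55, 3.19, 4.20, 5.29 and 5.28 TPM with DsRed. Its log2 fold was 2.25 (SE 0.40, edgeR adjusted p = 1.49e-05) at days 1 and 3, and DESeq2 gave an adjusted p of 0.136. Slc9a7, a cation and proton exchanger of the Golgi, had at most 2 reads in any DsRed library. Slc9a7 TPM from day 0 to day 7 was 4.26, 22.3, 17.4, 27.8 and 11.5 with FoxO6 and 0.74, 0, 0, 1.92 and 0.49 with DsRed. Against 3 reads, its level with FoxO6 was at least 12.54-fold higher on day 1 and at least 10.09-fold on day 3, with an adjusted p of 5.88e-09 in edgeR and of 0.681 in DESeq2.

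**Figure D4:**
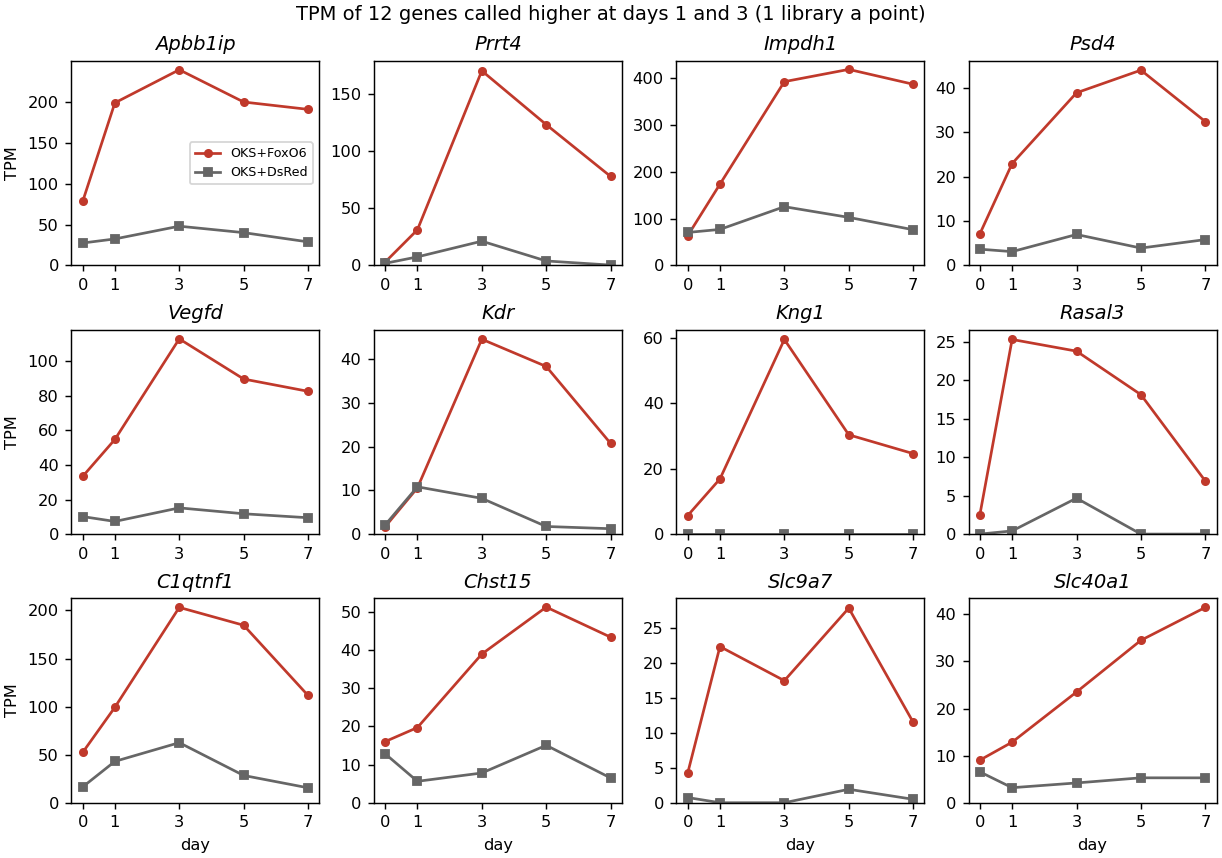
TPM on the 5 days for 12 of the 16 genes called higher with FoxO6 at days 1 and 3, red for OKS+FoxO6 and grey for OKS+DsRed, 1 library a point and each panel on its own scale from 0. Vegfd, Apbb1ip and C1qtnf1 are apart from day 0 on, while Kdr is level at day 0 and day 1 and apart from day 3.

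Mocos, the molybdenum cofactor sulfurase, was low with DsRed throughout. Mocos had a TPM of 18, 35.8, 52.4, 55.95 and 48.7 with FoxO6 at days 0, 1, 3, 5 and 7, and of 6.03, 10.3, 5.82, 9.31 and 8.38 with DsRed. It was higher with FoxO6 on every day, with a log2 fold of 2.40 (SE 0.30, edgeR adjusted p = 5.45e-09) at days 1 and 3. The 3 genes called with the smallest margins were Ppm1k, a mitochondrial phosphatase of branched-chain amino acid breakdown, March10, a ubiquitin ligase, and Zfp747, a zinc finger protein. Ppm1k had a log2 fold of 1.01 (SE 0.29, edgeR adjusted p = 0.0101), March10 of 1.07 (SE 0.31, edgeR adjusted p = 0.0108) and Zfp747 of 1.03 (SE 0.34, edgeR adjusted p = 0.029). March10, like Prrt4 and Kdr, also rose in the control before it fell back. With FoxO6 the TPM of March10 was 2.52, 37.1, 34.5, 50.5 and 14.97 from day 0 to day 7, and with DsRed it was 1.59, 34.1, 15.4, 2.39 and 0. The DsRed library of day 1 held 29 reads and that of day 7 held 0, when the FoxO6 library still held 28. Zfp747 shares 52.1% of its transcript sequence with other genes, and its values are uncertain for that reason.

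The rule set the members' course at days 5 and 7 and left that at days 1 and 3 free, and many members also rose in the control in between. With DsRed, 36 of the 100 members stood more than 2-fold above their day 0 at day 1 or day 3 (6.25% of the 5436 flat genes did), and with FoxO6 84 did (6.14% of the flat genes did), of which 30 did so in both arms. These counts use the day 0 libraries that the rule used, and nothing is read from them beyond the description. The highest DsRed library was that of day 3 in 43 members and that of day 1 in 24. With FoxO6 the highest library was that of day 5 in 37 members, of day 7 in 30, of day 3 in 25 and of day 1 in 8. Thus 89 members were more than 2-fold above day 0 at both day 5 and day 7 with FoxO6, and 10 members had a DsRed change of more than 2-fold at day 5 or day 7 alone, since the rule looks at their mean.

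Members with good depth show this transient rise in the control. Mxd4, a partner of Max that opposes Myc at E-boxes, rose in both arms by day 1. On the 5 days Mxd4 stood at 42.2, 142, 212, 163 and 102 TPM with FoxO6 and at 33.1, 139, 139, 46.4 and 35.7 TPM with DsRed. The arms were close at day 1 (375 reads with DsRed and 361 with FoxO6), and their difference over days 1 and 3 was not called, with a log2 fold of 0.14 (SE 0.15, edgeR adjusted p = 0.628). Cdh13, or T-cadherin, a cadherin without a transmembrane domain, did the same. In TPM, Cdh13 measured 56.4, 139.7, 245, 79.98 and 43.6 with DsRed and 72.3, 147, 273, 247 and 143 with FoxO6 from day 0 to day 7. Its difference at days 1 and 3 was a log2 fold of 0.15 (SE 0.13, edgeR adjusted p = 0.567), and the arms parted at day 5. Tef, a PAR bZIP transcription factor whose relatives follow the circadian clock, had smaller late differences. The DsRed libraries gave Tef a TPM of 39.6, 76.5, 87.05, 69.2 and 33.9, and the FoxO6 libraries 30.8, 83.8, 118, 110.0 and 73.7. Its log2 fold at days 1 and 3 was 0.23 (SE 0.17, edgeR adjusted p = 0.449), which was not called. Adamtsl4, a secreted protein that binds fibrillin, had a log2 fold of 0.10 (SE 0.18, edgeR adjusted p = 0.801). Adamtsl4 ran through 18.1, 47.7, 75.8, 77.4 and 58.2 TPM with FoxO6 from day 0 to day 7, and through 26.5, 53.2, 58.7, 39.7 and 17.6 TPM with DsRed. For these 4 genes the DsRed values were back near day 0 at day 7 and the FoxO6 values were not.

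Of the 6 genes called lower with FoxO6 at days 1 and 3, Gad2, Cd200r3, Col6a5 and Adamts7 had a transient rise of this kind, with a higher peak in the control. DESeq2 called none of the 6, with adjusted p from 0.126 to 1. Gad2, a glutamate decarboxylase that makes GABA, peaked at day 3 in both arms. For Gad2, the TPM from day 0 to day 7 was 4.75, 11.3, 40.3, 8.99 and 1.45 with DsRed and 1.44, 5.92, 17.9, 15.8 and 7.80 with FoxO6. At days 1 and 3 its log2 fold was -1.26 (SE 0.24, edgeR adjusted p = 4.29e-05). It lies 80.2 kb from Apbb1ip on chromosome 2, which was called in the opposite direction. Cd200r3, a receptor of the CD200 receptor family known from mast cells and basophils, was highest with DsRed at days 1 and 3. Across the time course Cd200r3 read 7.84, 39.3, 48.03, 59.5 and 31 TPM with FoxO6, against 18.4, 99.7, 101, 57.4 and 8.84 TPM with DsRed. Its log2 fold was -1.16 (SE 0.19, edgeR adjusted p = 6.63e-06), and at day 7 the order of the arms had turned. The extracellular matrix genes Col6a5, a chain of collagen VI, and Adamts7, a metalloprotease, were also lower. Col6a5 TPM from day 0 to day 7 was 6.31, 12.7, 20.9, 31.7 and 15.6 with FoxO6 and 7.91, 26.8, 35.6, 13.9 and 6.46 with DsRed. Adamts7 had a TPM of 38.01, 86.4, 122, 109.9 and 113 with FoxO6 at days 0, 1, 3, 5 and 7, and of 73.9, 132, 179.7, 77.5 and 90.7 with DsRed. Their log2 folds at days 1 and 3 were -0.92 (SE 0.21, edgeR adjusted p = 0.000703) and -0.65 (SE 0.14, edgeR adjusted p = 0.000425), and both ended with the FoxO6 library above the DsRed library at day 7. Gpr155, a cholesterol sensor of the lysosome, had a log2 fold of -1.77 (SE 0.44, edgeR adjusted p = 0.00269), and Nbeal2, needed for platelet granules, of -1.05 (SE 0.34, edgeR adjusted p = 0.0279). Neuron and glia markers, given because Gad2 is a neuronal gene, summed to 141.3 to 236.4 TPM with DsRed and 79.8 to 113.7 with FoxO6, and their part in the result was not tested.

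**Figure D5:**
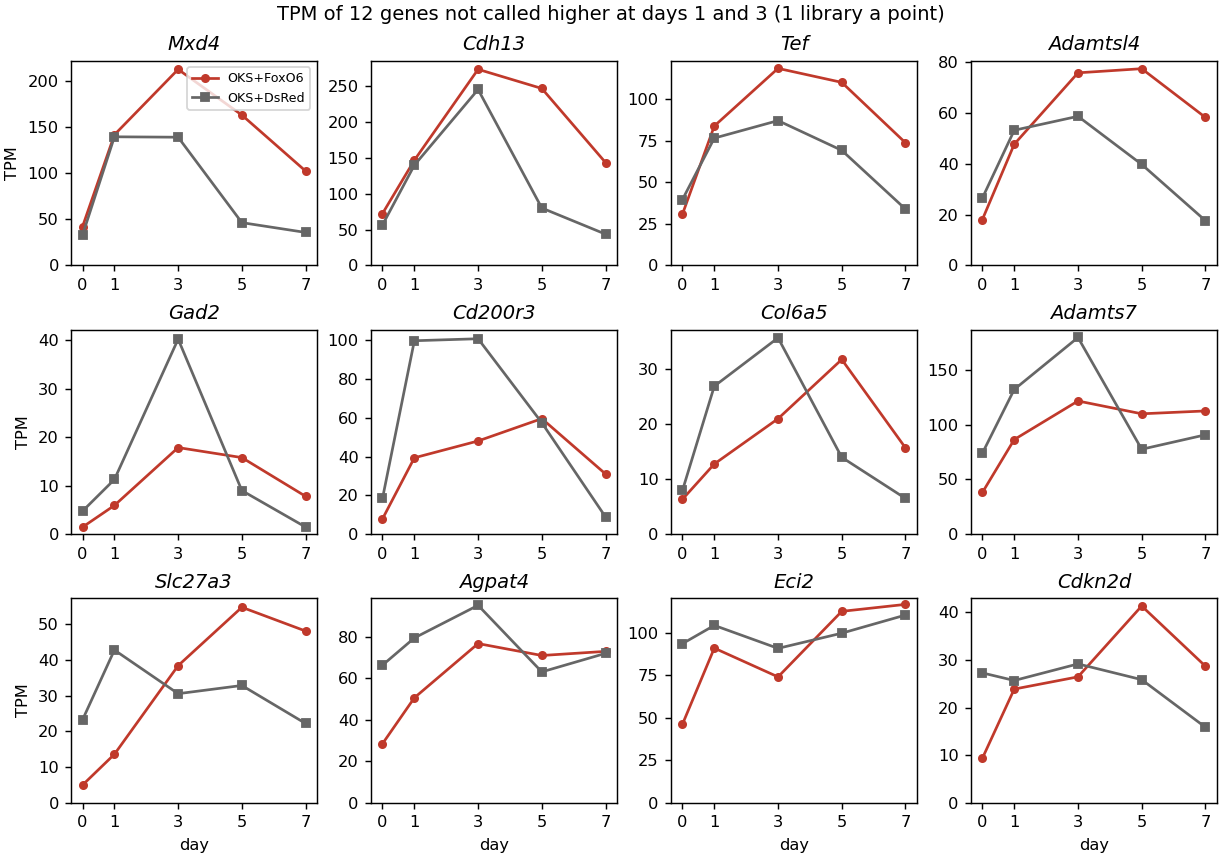
TPM on the 5 days for 12 members that were not called higher at days 1 and 3, red for OKS+FoxO6 and grey for OKS+DsRed, 1 library a point and each panel on its own scale from 0. The top row rises in both arms and falls back to its start only with DsRed, Gad2, Cd200r3, Col6a5 and Adamts7 peak higher with DsRed, and the bottom row starts lower with FoxO6.

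Other members started from a low FoxO6 value at day 0. Slc27a3, an acyl-CoA synthetase of fatty acid metabolism, had 12 reads in that library and 33 in the DsRed one. With FoxO6 the TPM of Slc27a3 was 4.96, 13.6, 38.4, 54.8 and 48.1 from day 0 to day 7, and with DsRed it was 23.2, 42.8, 30.6, 32.9 and 22.2. In the mean of days 5 and 7 it ended above DsRed by less than 2-fold. Macrod2, which removes ADP-ribose from proteins, had the highest values with DsRed at day 3. On the 5 days Macrod2 stood at 3.05, 16.3, 26.7, 25.5 and 18.2 TPM with FoxO6 and at 20.02, 19.1, 40.9, 26.3 and 7.84 TPM with DsRed. Cenpw, a kinetochore protein, ended near the same level in both arms. In TPM, Cenpw measured 10.8, 12.2, 7.42, 13.6 and 13.97 with DsRed and 1.27, 14.1, 6.66, 9.90 and 13.04 with FoxO6 from day 0 to day 7. Its FoxO6 rise of 2.45 rests on 5 reads at day 0, for which the exact 95% Poisson interval, covering counting error only, runs from 1.62 to 11.7 reads. The effective length of Cenpw with FoxO6 was 3830 bases at day 0 and 2176 and 1768 at days 5 and 7. The rise of Cenpw in CPM was 1.91, and under the rule in CPM it was not a member. Cdkn2d, an inhibitor of the cyclin-dependent kinases CDK4 and CDK6, was the only member from the list of CDK inhibitors and p53 targets. All 22 genes of that list were expressed, and 2 were called higher with FoxO6 by edgeR, a share near the 6.59% of all genes. The DsRed libraries gave Cdkn2d a TPM of 27.3, 25.7, 29.2, 25.9 and 15.9, and the FoxO6 libraries 9.35, 23.9, 26.4, 41.3 and 28.7. Cdkn2d was not called at days 1 and 3, with a log2 fold of -0.32 (SE 0.37, edgeR adjusted p = 0.674). Eci2, a peroxisomal enoyl-CoA isomerase at the limit of the list, shows the same at high expression. Eci2 ran through 46.2, 91.01, 74.1, 113 and 117 TPM with FoxO6 from day 0 to day 7, and through 93.6, 104, 90.9, 99.8 and 110.5 TPM with DsRed. At days 5 and 7 the arms lay close together, and at day 0 they did not. A930005H10Rik, a noncoding transcript, had the fifth largest rise of all, 4.29, from 1 read at day 0. For A930005H10Rik, the TPM from day 0 to day 7 was 18.3, 14.6, 11.3, 17.3 and 34.4 with DsRed and 0.49, 35.6, 21.1, 23.9 and 33.3 with FoxO6. Its other 4 FoxO6 libraries had 14 to 16 reads. Its effective length with FoxO6 was 2028 bases at day 0 and 578 and 470 at days 5 and 7, its rise in CPM was 2.57, and under the rule in CPM it was not a member.

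Further members with large rises were not called at days 1 and 3. Msrb2, a mitochondrial methionine sulfoxide reductase, started level in both arms and climbed to day 7 with FoxO6. Across the time course Msrb2 read 17.6, 38.6, 42.6, 67.03 and 79.3 TPM with FoxO6, against 17.7, 25.6, 24.1, 18.01 and 25.4 TPM with DsRed. The difference at days 1 and 3 was a log2 fold of 0.68 (SE 0.35, edgeR adjusted p = 0.224). Dhrs3, a retinal reductase that limits retinoic acid, whose promoter with the forkhead core is printed above, was lower with FoxO6 at days 1 and 3 and higher at days 5 and 7. Dhrs3 TPM from day 0 to day 7 was 21.6, 33.05, 57.8, 104 and 74.4 with FoxO6 and 22.02, 47.5, 72.2, 37.4 and 26.4 with DsRed. The difference at days 1 and 3 was -0.26 (SE 0.25, edgeR adjusted p = 0.611) and was not called. Zdhhc14, a palmitoyltransferase, was lower with FoxO6 at day 0 and similar in both arms at days 1 and 3. Zdhhc14 had a TPM of 2.97, 12.3, 20.2, 25.2 and 19.4 with FoxO6 at days 0, 1, 3, 5 and 7, and of 6.59, 11.7, 22.4, 15.3 and 5.05 with DsRed. Its log2 fold was -0.08 (SE 0.30, edgeR adjusted p = 0.916). Asrgl1, an asparaginase-like enzyme, was lowest at day 1 in both arms. With FoxO6 the TPM of Asrgl1 was 5.70, 5.59, 15.4, 23.6 and 29.99 from day 0 to day 7, and with DsRed it was 13.1, 7.67, 12.3, 17.7 and 18.1. It started at 5.7 with FoxO6, below the DsRed library, and had a log2 fold of -0.01 (SE 0.33, edgeR adjusted p = 0.995) at days 1 and 3. The function of 1700019D03Rik is not described here. On the 5 days 1700019D03Rik stood at 4.66, 6.94, 11.1, 28.01 and 21.03 TPM with FoxO6 and at 20.3, 9.22, 50.1, 23.2 and 23.03 TPM with DsRed. Its late values were close in both arms.

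Ankrd23, a muscle ankyrin repeat protein, also holds the forkhead core in the promoter window printed above. It had no read in the FoxO6 day 0 library, with an exact 95% Poisson interval of 0 to 3.69 reads. In TPM, Ankrd23 measured 5.04, 5.37, 5.56, 7.42 and 7.43 with DsRed and 0, 10.8, 11.6, 15.2 and 21.9 with FoxO6 from day 0 to day 7. It was higher with FoxO6 on the 4 later days, with at most 25 reads a library, and its log2 fold of 0.90 (SE 0.52, edgeR adjusted p = 0.295) was not called. Skeletal muscle markers summed to 2.6 to 48.4 TPM with DsRed and to 8.2 to 42.8 TPM with FoxO6 up to day 5. In the FoxO6 library of day 7, where Ankrd23 was highest too, they summed to 245.9 TPM. Of these 8 markers, 4 reached 1 TPM in any library, and Myog and Tnnt3 were at 0 in all 10 libraries. Of the 4 genes of the skeletal muscle list in the fit, 0 were called higher and 2 lower, with a median log2 fold of -1.48. The median rise of the list was 1.15 with FoxO6 and 0.03 with DsRed. The study states that reprogramming with FoxO6 was not linked to muscle differentiation. Whether muscle cells were present, and their part in the Ankrd23 value, was not tested. Of its transcript sequence 77.3% is shared with other genes, most of it with Gm42417.

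For 18 of the 100 members, more than 50% of the stretches of 31 bases of their transcripts also occur in transcripts of other genes. Try5, a pancreatic trypsin, had the largest rise of all, with 0 reads in all DsRed libraries. The DsRed libraries gave Try5 a TPM of 0 on all 5 days, and the FoxO6 libraries 1.25, 3.29, 59.8, 80.2 and 89.01. Against 3 reads, Try5 was higher with FoxO6 by at least 10.85-fold at day 3, 13.41-fold at day 5 and 23.81-fold at day 7. It shares 59.7% of its transcript sequence with other genes, with 51.0% shared with the trypsin gene Try4, so that part of it is its own. With 2 reads at day 1 and 43 at day 3 with FoxO6 it did not pass the filter of the fit. Defa30, Defa23 and Defa31, alpha-defensins known from Paneth cells of the gut, lie in 1 cluster on chromosome 8, with Defa30 78.6 kb from Defa23 and 56.0 kb from Defa31. Defa30 ran through 0, 34.9, 67.8, 41.7 and 13.7 TPM with FoxO6 from day 0 to day 7, and through 0 on all 5 days with DsRed. All 3 had 0 reads in all DsRed libraries and at most 22, 14 and 10 reads in any FoxO6 library. Defa30 shares 70.4% of its sequence with other genes and 48.9% with Defa24. Defa23 and Defa31 share all of their transcript sequence with other genes, so their separate values are uncertain. Ppp1ccb, a pseudogene that shares 99% of its sequence with the phosphatase gene Ppp1cc, had reads in some libraries of both arms and none in the others. For Ppp1ccb, the TPM from day 0 to day 7 was 0, 41.99, 0, 0 and 0 with DsRed and 0, 20.5, 0.25, 26.6 and 25.1 with FoxO6. The pseudogenes Pgam1-ps2 and Gm15452 share all of their sequence with Pgam1 and Cks2, and the histone gene Hist2h2aa1 shares 89.7% of its sequence with Gm20634.

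The kinds of gene and their length were counted as well. Protein-coding genes made up 84.0% of the members, against 94.7% of the 11491 genes, and 5 members were pseudogenes. The median effective length was 1927 bases, against 2469. TPM also depends on the length that the estimate gives each gene. With FoxO6, 6 members had an effective length more than 1.5 times shorter in the mean of days 5 and 7 than at day 0. Among them were Nbeal2, with 7606 bases at day 0 and 3794 at day 5, and Lrrc61, with 2757 and 915. In counts scaled to library size (CPM), without the length, 95 members rose by more than 1 on the log2 scale with FoxO6, with a median of 1.62, and 16 had a control rise outside the band.

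The FoxO target list, with 23 expressed genes, held 0 members, which in a list of this size is near the share over all genes, 100 members of 11491 expressed. Of its 22 genes in the fit, 8 were called higher with FoxO6 at days 1 and 3 by edgeR (6.59% of all genes were), and the median log2 fold was 0.58. Their median rise to days 5 and 7 was -0.01 with FoxO6 and 0.97 with DsRed, and the rule takes only genes with a flat course in the control. The lysosome and autophagy lists, with 30 and 31 expressed genes, also held 0 members, likewise near that share. In the fit 22 of 29 lysosomal genes were called higher, and 9 of 31 autophagy genes were called higher and 1 lower, against 6.59% higher and 7.44% lower over all genes. Their median rises were 0.07 and 0.05 with FoxO6 and -0.24 and -0.07 with DsRed. Pluripotency genes, 13 of them expressed, had 0 members and median rises of 2.12 with FoxO6 and 3.67 with DsRed.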

How the data were processed

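RNA of the 10 libraries, 1 per arm and day, was sequenced by the study. The labels name a VAHTS mRNA-seq V3 kit for the libraries and the methods a TruSeq kit. The submitters' processing notes name RSEM, Bowtie2 and mm10, and the methods name GENCODE M13. The deposited expected counts are RSEM estimates without normalization, and the TPM values, also deposited, come from the same run of the authors. The effective lengths are those of the same files, and a table of the whole series was not used here.

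Samples were grouped by their labels. Rises and differences were computed from log2(TPM + 1), with a pseudocount of 1, which understates the change of low genes, in Python 3.11.15 with pandas 2.3.3 and numpy 2.4.6. Expected counts were rounded to whole numbers and the 4 libraries of days 1 and 3 were fitted with edgeR 4.0.16 (R 4.3.3), with TMM, filterByExpr and a term for day, at an adjusted p under 0.05 and a common dispersion of 0.016. On simulated data for this comparison, with 11085 genes, 186 of 200 genes changed 4-fold were recovered with 0 false calls. The simulated counts used that common dispersion for every gene and no day effect. They therefore do not measure the rate of false calls in the real libraries. DESeq2 1.42.0 was an alternative. Depth was 1208379 to 2225750 expected counts. Folds given as at least a value are on CPM, with a DsRed library of 0 reads set to 3 reads. The FoxO6 count was taken as measured, so the counting error of the FoxO6 side is not covered. Sequences and promoters are from RefSeq (GRCm38.p6), and positions and transcripts from GENCODE M21 (GRCm38).

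The members, lists and alternatives were chosen with earlier results of these data known. Genes were named by a rule: the 20 largest rises with at least 20 expected counts in both late FoxO6 libraries, the members called by edgeR (up to 15 by p), members of a gene list or named by the study, the 3 on each side of the limit, and those with a printed promoter. Other names are examples chosen after their values were seen. Rises from day 1, the counts among deeper members and under other TPM minimums, and the alternatives for members called lower were added after seeing the data.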

Additional observations from a re-analysis of the deposited data

How the results depend on the processing

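The 16 members called higher at days 1 and 3 became 9 with DESeq2 and 3 without the day term, where they are Apbb1ip, Psd4 and Rasal3. All 9 and all 3 are among the 16, and DESeq2 gave no adjusted p for 28 of the 100 members. The 6 members called lower became 0 with DESeq2 and 0 without the day term. With the minimum TPM taken over days 0, 5 and 7 the members called higher were 15, and with it set on the DsRed libraries of those days 9. The count of all genes called higher, 730, became 122 with DESeq2, 22 without the day term and 334 when the spread was taken from all 10 libraries, and the cause was not tested. With other size factors, without the filter, with the spread of all 10 libraries and among the members of at least 20 expected counts, 17, 18, 14 and 15 members were called higher. Without the filter Try5 and Defa30 were added. The membership depends on the rule. Of the 100 members, 37 were kept with no minimum TPM, 40 with a minimum of 1, 53 with a band of 0.25, 55 with a band of 1, 54 with day 5 alone, 48 with day 7 alone and 8 when the rise was taken from day 1 in place of day 0. A pseudocount of 0.1 kept 89, CPM 68 and a minimum TPM of 10 kept 76, and Try5 was the only member kept under all 10. With 1 library per group, the spread between cultures is not known. The day term pairs the arms by day, and the labels carry no replicate numbers for another block. Depth limits the low members, of which 22 were not in the fit.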
